A study of Homo sapiens with 12 samples.

Results

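The 10 genes described here belong to the integrated stress response that runs through the transcription factor ATF4. They are ATF4 itself, EIF2AK4, DDIT3, TRIB3, CHAC1, ATF3, DDIT4, PPP1R15A, CEBPB and CEBPG, taken by name from a table of 44659 genes, and each name matched 1 row. RNA-seq was performed on A375 cells, an established human melanoma cell line that carries a mutated BRAF, in 2 experiments of 24 h with 3 libraries per group and 12 libraries in all. In the first experiment, cells received inhibitors of BRAF (vemurafenib, 500 nM) and of MEK (cobimetinib, 500 nM), together called MAPKi, or the solvent DMSO. In the other, they were cultured without glutamine (Gln-depleted) or with 2 mM glutamine (CTRL medium), and no group of that experiment received inhibitor. All groups were grown from the same line in the same serum-containing medium apart from these changes, so each result describes 1 line at 1 time. The labels place the MAPKi and DMSO libraries in one sequencing batch and the Gln-depleted and CTRL medium libraries in another, so differences in level between the DMSO and CTRL medium groups cannot be told apart from the batch.

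When a cell lacks amino acids or is stressed in another way, kinases phosphorylate the translation factor eIF2, which lowers protein synthesis in general while the ATF4 mRNA is translated more. ATF4 then forms dimers with other bZIP factors, among them CEBPB and CEBPG, and binds C/EBP-ATF response elements near genes for amino acid synthesis and transport, tRNA charging and stress control. Some of its targets, such as PPP1R15A, TRIB3 and DDIT3, in turn act on the response. The data are mRNA levels, so neither ATF4 protein nor phosphorylated eIF2 was measured.

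The libraries held 31056296 to 40071368 counted reads each (median 35748567). The replicates differed by more than counting error in every group, and by more in the Gln depletion experiment, where a chi-square per degree of freedom over genes reached 173.9, than in the MAPKi experiment, where it reached 14.39. The labels place replicate 1 of both media in another experimental batch than replicates 2 and 3, and say nothing more on whether replicates came from separate cultures, so p-values measure the spread between these libraries. The melanocyte lineage was described with 8 markers, whose levels do not identify the line itself. Of these, 6 reached a mean level of 1 CPM (normalised read counts scaled to library size) in the DMSO, CTRL medium and Gln-depleted groups. MLANA and TYR stayed below it in these groups, and all 8 markers reached it with MAPKi. Of the other marker lists, the leukocyte list summed to at most 2.079 CPM and the endothelial list to at most 11.09 in any library. The fibroblast list summed to at most 24.02 CPM, mostly LUM, the keratinocyte list to at most 111.7, mostly KRT10, and the epithelial list to between 104.2 and 117 with DMSO, between 29.87 and 32.04 with MAPKi and at most 228.4 in Gln-depleted libraries, mostly KRT18. The summed level of the melanocyte list was between 1596 and 1687 CPM with DMSO and between 9341 and 11796 with MAPKi, between 1256 and 1487 in CTRL medium and between 786.5 and 854.2 in Gln-depleted libraries. With MAPKi most of this sum was DCT, at a mean of 8165 CPM against 209.4 with DMSO. S100B was the only marker of the list with a lower mean with MAPKi (41.44 against 181). The part of these lists in the results was not tested. All 10 transcriptional targets of the MAPK pathway used to check the treatment were downregulated with MAPKi, DUSP6 by the most, with a log2 fold change of -9.53. With Gln depletion 4 of them were higher (9.43% of all genes were). The number was 10 with replicate number as a term of the fit, which also called more of all genes. It was 1 without Gln-depleted replicate 2 or without CTRL medium replicate 2 or 3.

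The sequences that ATF4 dimers can bind were read before the annotated starts of transcription, because they show which of the 10 genes carry a match close to their start. RefSeq gives 17 starts for the 10 genes, and the bases come from the GRCh38 genome. A gene counts as matched if any of its starts has a match. Within 250 bases before a start, the C/EBP-ATF response element TGATGNAA, searched on both strands, matched in 3 of the 10 genes (CHAC1, ATF3 and CEBPG) against 3.16% of 15840 protein-coding genes. Within 500 bases, a window chosen after the matches had been seen, it matched in 5 of 10 (also DDIT3 and TRIB3) against 6.43%. One 30-base stretch per gene is given on the strand of the gene, with the match in capitals. The match in CHAC1, TRIB3 and DDIT3 reads on the opposite strand. ATF3 has its match only before the start at chr1:212565407 and not before the one at chr1:212615018. CEBPG has it only before the start at chr19:33374113 and not before the one at chr19:33373709. The stretch of CHAC1 lies at chr15:40953251-40953280, that of TRIB3 at chr20:380881-380910, DDIT3 at chr12:57520802-57520831 (minus strand), CEBPG at chr19:33374060-33374089 and ATF3 at chr1:212565205-212565234.
CHAC1: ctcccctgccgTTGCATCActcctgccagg
TRIB3: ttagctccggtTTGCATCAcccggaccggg
DDIT3: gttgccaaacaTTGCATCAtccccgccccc
CEBPG: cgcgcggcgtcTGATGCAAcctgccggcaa
ATF3: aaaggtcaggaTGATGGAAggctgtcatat

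The TRIB3 stretch occurred 3 times without a change, each copy 33 bases after the one before. Only 2 of the 15840 genes, 0.0126%, had 3 or more matches within 500 bases of a start, and TRIB3 is 1 of these 2. The 500-base window was chosen after the matches had been seen, so this share is a description only. The matches of CHAC1, TRIB3, DDIT3 and CEBPG shared the core TTGCATCA or its reverse complement TGATGCAA, whereas ATF3 had TGATGGAA. The cAMP response element TGACGTCA, the palindrome bound by ATF and CREB factors, matched within 250 bases in 1 gene, PPP1R15A, between 58 and 51 bases before its start at chr19:48872352-48872381, against 2.73% of genes. GENCODE annotates all 30 bases of this stretch as untranslated exon of a transcript. It does the same for all 30 bases of the CHAC1 stretch and of each TRIB3 copy, although they lie before the RefSeq starts. For the DDIT3, CEBPG and ATF3 stretches printed above it does so for 0 bases.
PPP1R15A: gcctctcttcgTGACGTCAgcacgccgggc

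The AP-1 site TGANTCA matched within 250 bases in EIF2AK4 and DDIT3, against 7.08% of genes. No match of the 3 motifs was found within 500 bases before the starts of DDIT4 and CEBPB, which says only that these letters are not in the window.

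**Figure D1:**
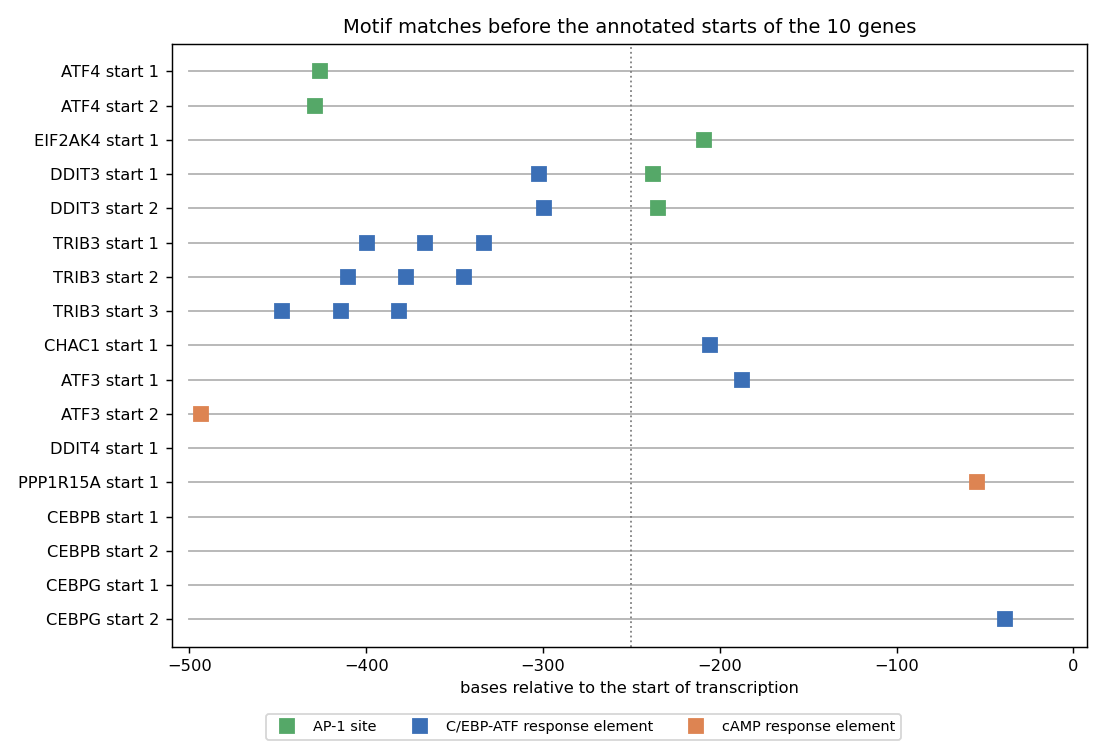
Matches of the 3 motifs in the 500 bases before each of the 17 annotated starts of the 10 genes; the x axis gives bases relative to the start of transcription and the dotted line marks 250 bases. TRIB3 has 3 evenly spaced C/EBP-ATF response elements before each of its 3 starts, and DDIT4 and CEBPB have no match.

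With Gln depletion, 9 of the 10 genes were upregulated, and EIF2AK4 was not. Upregulated and downregulated mean a change tested to exceed 1.5-fold, and higher and lower mean tested against no change. Both used edgeR's quasi-likelihood method, with p-values adjusted over all protein-coding genes tested (Benjamini-Hochberg) and a limit of 0.05. Treatment was the only term, so same-numbered libraries were not paired unless stated. Of 12512 genes tested with Gln depletion, 3.47% were upregulated and 9.43% higher, and 2.09% were downregulated and 8.29% lower. In 18.2% of genes every Gln-depleted library lay above every control, as in 9 of the 10 genes here. The median log2 fold change of the 10 genes was 2.54, against 0.00 over all genes tested. With MAPKi the same 10 genes were split. Of the 10 genes, 4 were higher (39.3% of 12593 genes tested were) and 5 were lower (38.8%), so these shares are near the background. The libraries of the 4 all lay above the controls (40.8% of all genes) and those of the 5 all below (40.2%). ATF3 and DDIT4 were upregulated (17.2% of all genes), and ATF4, TRIB3, CHAC1 and CEBPG downregulated (18.4%).

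**Figure D2:**
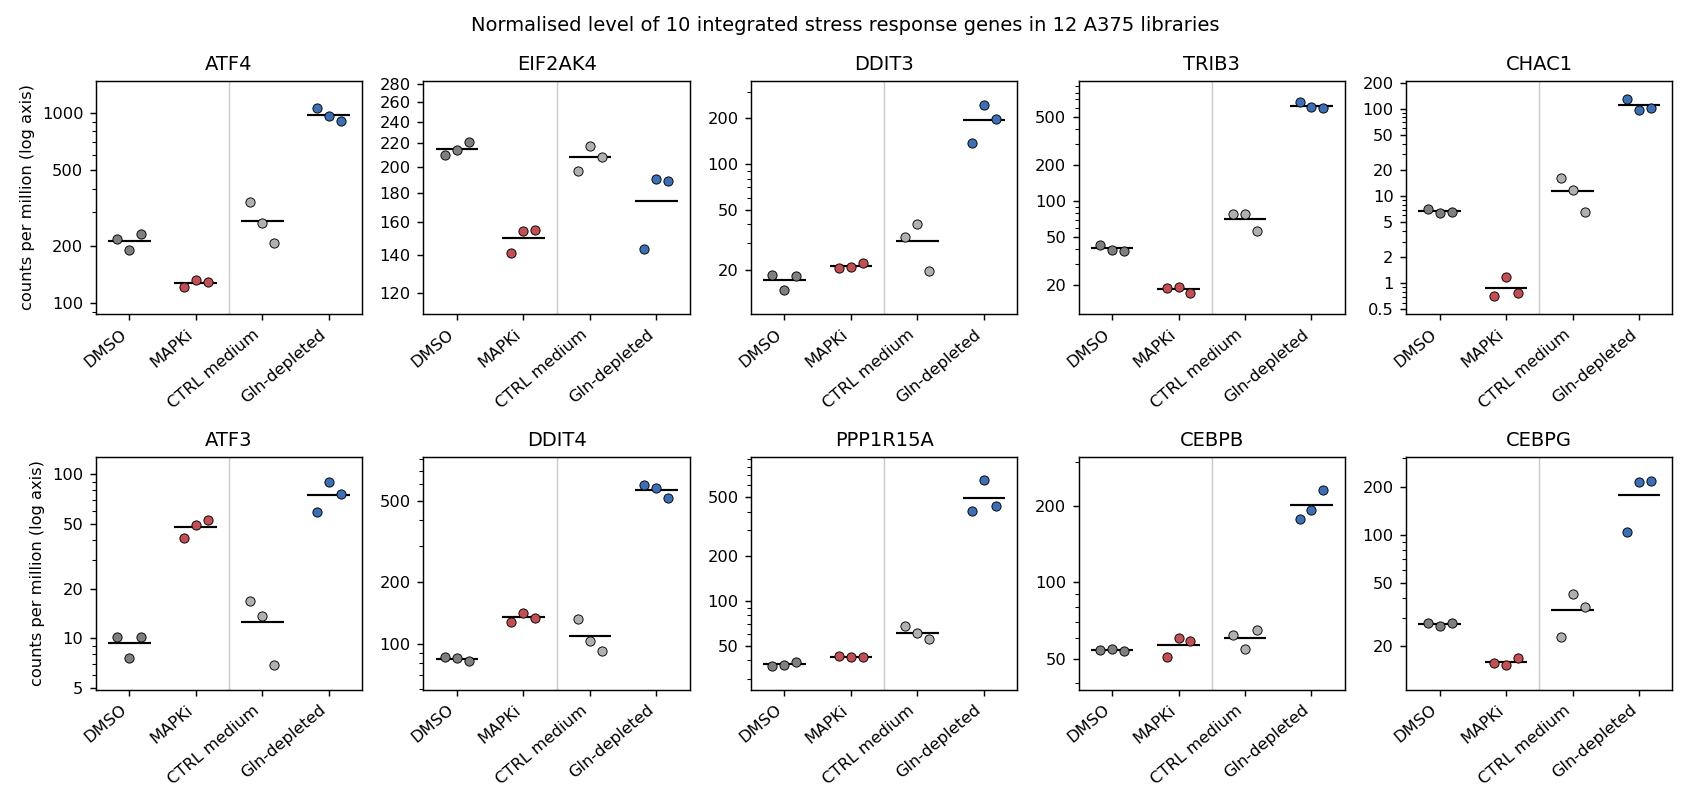
Normalised level of each of the 10 genes in CPM (log axis, a separate range per panel) in the 12 libraries; points are libraries 1 to 3 of each group from left to right and lines are group means. For 9 genes every Gln-depleted library is above every CTRL medium library, and ATF4, EIF2AK4, TRIB3, CHAC1 and CEBPG are lower in every MAPKi library than in every DMSO library.

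ATF4 is the transcription factor at the centre of the response (chr22:39519695-39522683, plus strand). Its level was 341.4, 262.9 and 205.9 CPM in CTRL medium replicates 1 to 3 and 1056, 958.8 and 909.7 in Gln-depleted replicates 1 to 3. All Gln-depleted libraries lay above all controls, and the log2 fold change was 1.90 (SE 0.22, n = 3 per group, adjusted p = 0.00209 with edgeR). With MAPKi the level moved the other way. It was 218.3, 189.9 and 230.9 CPM with DMSO and 122, 132.4 and 129.2 with MAPKi, without overlap. This was a log2 fold change of -0.74 (SE 0.07, adjusted p = 1.29e-05 with edgeR against no change). Against the 1.5-fold threshold the adjusted p was 0.0266, and the downregulated call was lost with DESeq2, in the fit of all 12 libraries, and without DMSO replicate 1, DMSO replicate 3 or MAPKi replicate 1, although the gene stayed lower than with DMSO in each of these fits.

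EIF2AK4 encodes GCN2, the eIF2 kinase that senses uncharged tRNA (chr15:39934115-40035591, plus strand). It was the only one of the 10 genes without a rise with Gln depletion. Its level was 197.1, 218 and 208.4 CPM in CTRL medium and 143.6, 190.8 and 188.6 in Gln-depleted libraries. All 3 Gln-depleted libraries lay below the controls, as in 21.7% of all genes tested, and the log2 fold change of -0.21 (95% interval -0.64 to 0.22) had an adjusted p of 0.466 with edgeR. With replicate number as a term of the fit it was -0.22 (adjusted p = 0.145 with edgeR). With MAPKi the level fell from 209.8, 214.5 and 221.6 CPM with DMSO to 140.9, 154.4 and 155. This drop gave a log2 fold change of -0.52 (SE 0.05, adjusted p = 1.09e-05 with edgeR), which did not pass the 1.5-fold threshold.

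CEBPG and CEBPB are bZIP partners of ATF4. The level of CEBPG (chr19:33373685-33382686, plus strand) was 22.87, 42.55 and 35.35 CPM in CTRL medium and 104.5, 213.2 and 215.3 in Gln-depleted libraries. Replicate 1 was the lowest of its group in both media, and the groups did not overlap. The log2 fold change was 2.44 (SE 0.35, adjusted p = 0.0044 with edgeR), and the upregulated call was lost without Gln-depleted replicate 3, where the gene stayed higher. With replicate number as a term of the fit it was 2.42 (adjusted p = 4.85e-05 with edgeR). With MAPKi CEBPG fell from 27.86, 26.95 and 27.83 CPM with DMSO to 15.62, 15.27 and 16.86, a log2 fold change of -0.79 (SE 0.06, adjusted p = 1.6e-06 with edgeR). Its downregulated call was lost in the fit of all 12 libraries (adjusted p = 0.246 with edgeR against 1.5-fold), where it stayed lower. CEBPB (chr20:50190830-50192668, plus strand) went from 61.68, 54.54 and 64.95 CPM in CTRL medium to 178.3, 193.5 and 232.5 in Gln-depleted libraries. Its log2 fold change of 1.78 (SE 0.19, adjusted p = 0.00157 with edgeR) was the smallest of the 9 rises. With MAPKi it was 50.8, 60.45 and 58.46 CPM, against 53.84, 54.38 and 53.7 with DMSO. These libraries overlapped, and the log2 fold change of 0.07 (95% interval -0.07 to 0.21) had an adjusted p of 0.337 with edgeR. An antisense gene, CEBPB-AS1, covers 12.6% of the exon bases of CEBPB with a median count of 429 against 1986, and the strand setting of the counting is not given in the sources used here, so their reads may not have been told apart.

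CHAC1, an enzyme that breaks down glutathione, had the largest absolute log2 fold change of the 10 genes in both experiments, in opposite directions (chr15:40952962-40956512, plus strand). Its level was 15.98, 11.65 and 6.598 CPM in CTRL medium and 128.9, 97.58 and 103.3 in Gln-depleted libraries. Depletion gave a log2 fold change of 3.32 (SE 0.33, adjusted p = 0.00134 with edgeR). With DMSO it was 7.134, 6.442 and 6.512 CPM, and with MAPKi 0.7197, 1.164 and 0.7651. The MAPKi libraries held 24, 35 and 29 reads of the gene against 223, 218 and 227 with DMSO, so counting error weighs more here than for the other genes. The log2 fold change was -2.93 (SE 0.19, adjusted p = 6.49e-07 with edgeR).

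TRIB3, a pseudokinase that binds ATF4 and lowers its activity, followed the same pattern (chr20:362835-397559, plus strand). Its level was 77.64, 77.91 and 56.97 CPM in CTRL medium and 664.5, 605.4 and 591.4 in Gln-depleted libraries, a log2 fold change of 3.18 (SE 0.21, adjusted p = 0.000529 with edgeR). With MAPKi it fell from 42.93, 39.6 and 38.79 CPM to 18.98, 19.3 and 17.31, a log2 fold change of -1.13 (SE 0.06, adjusted p = 2.6e-07 with edgeR). Neither comparison had overlapping libraries. ATF4, TRIB3, CHAC1 and CEBPG were thus the 4 genes that were higher with Gln depletion and lower with MAPKi, a pattern that 2.74% of 12291 genes tested in both experiments had. DDIT3, ATF3, DDIT4 and PPP1R15A, also 4 genes, were higher in both, as 4.5% of these genes were.

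ATF3, a bZIP factor induced by many stresses, had the largest rise of the 10 genes with MAPKi (chr1:212565334-212620777, plus strand). Its level was 10.14, 7.595 and 10.18 CPM with DMSO and 40.93, 49.14 and 52.95 with MAPKi. This rise gave a log2 fold change of 2.36 (SE 0.13, adjusted p = 2.33e-07 with edgeR). With Gln depletion it went from 16.98, 13.72 and 6.916 CPM to 58.62, 90.04 and 75.64, a log2 fold change of 2.63 (SE 0.34, adjusted p = 0.00321 with edgeR). Every treated library lay above its controls in both experiments.

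DDIT4, also called REDD1, an inhibitor of mTORC1, was raised in both experiments too (chr10:72273919-72276036, plus strand). Its level was 132.1, 102.5 and 91.66 CPM in CTRL medium and 593.6, 575.1 and 515.1 in Gln-depleted libraries, a log2 fold change of 2.41 (SE 0.20, adjusted p = 0.000884 with edgeR). With DMSO it was 85.57, 84.58 and 82.13 CPM and with MAPKi 128.1, 141.7 and 133.9. The log2 fold change with MAPKi was 0.68 (SE 0.05, adjusted p = 1.11e-06 with edgeR), close to the 1.5-fold threshold, against which the adjusted p was 0.0309. The upregulated call was lost without MAPKi replicate 2 or 3 and without DMSO replicate 2 or 3, and with DESeq2, while the gene stayed higher.

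PPP1R15A, also called GADD34, directs a phosphatase to eIF2 and so ends the response (chr19:48872212-48876059, plus strand). Its level was 67.42, 60.56 and 55.8 CPM in CTRL medium and 400.3, 647.5 and 439 in Gln-depleted libraries, a log2 fold change of 3.06 (SE 0.24, adjusted p = 0.000799 with edgeR). With MAPKi it was 42.58, 42.22 and 42.11 CPM against 36.56, 37.09 and 39.07 with DMSO. These groups did not overlap, but the log2 fold change was 0.17 (SE 0.04, adjusted p = 0.00652 with edgeR), and it was 0.16 with an adjusted p of 0.429 when the 12 libraries shared an estimate of the spread.

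DDIT3, or CHOP, a C/EBP family factor linked to cell death under lasting stress (chr12:57516588-57521737, minus strand), went from 33.08, 40.36 and 19.64 CPM in CTRL medium to 138.1, 245.7 and 199.8 in Gln-depleted libraries. The log2 fold change was 2.70 (SE 0.33, adjusted p = 0.00252 with edgeR). With MAPKi it was 20.42, 20.79 and 22.13 CPM against 18.59, 14.69 and 18.22 with DMSO, a log2 fold change of 0.30 (SE 0.09, adjusted p = 0.0147 with edgeR). This call was lost without MAPKi replicate 3 (0.25, adjusted p = 0.0549) and in the fit of 12 libraries (0.29, adjusted p = 0.361). DDIT3 shares 355 exon bases, 27.2% of its own, with MARS1 on the opposite strand, which had a median count of 6300 against 790. MARS1 fell with MAPKi (log2 fold change -1.20) and rose with Gln depletion (1.14). The part of shared reads in the DDIT3 values was not tested.

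**Figure D3:**
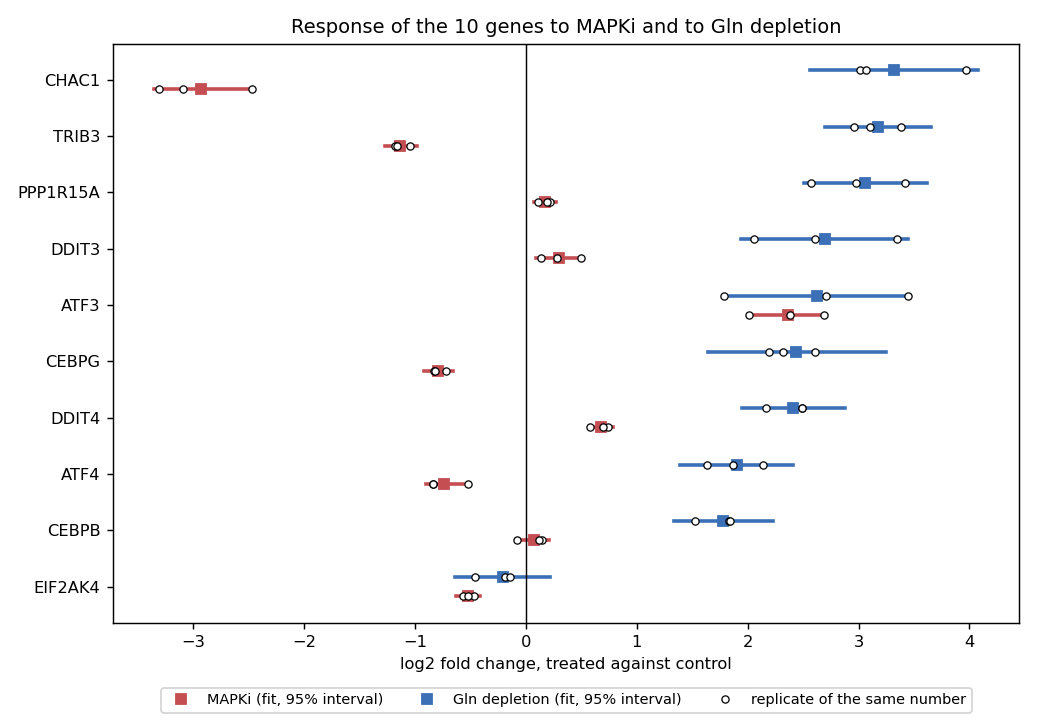
Log2 fold change of the 10 genes with MAPKi (red) and with Gln depletion (blue); squares and bars are the edgeR estimate and its 95% interval over 3 libraries per group, and open circles are the log2 ratios of libraries with the same replicate number. CHAC1 spans -2.93 to 3.32, ATF3 rises in both, and the interval of EIF2AK4 with Gln depletion includes 0.

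The labels put Gln depletion replicates 1 in experimental batch 1 and replicates 2 and 3 in experimental batch 2. Within batch 2 the same number of genes, 9, was upregulated, with log2 fold changes of 2.03 for ATF4, 3.18 for TRIB3 and 3.50 for CHAC1. Batch 1 holds a single library per group, so it gives a ratio without a test, and this log2 ratio was 1.63 for ATF4, 3.10 for TRIB3 and 3.01 for CHAC1. For EIF2AK4 it was -0.46 in batch 1 and -0.14 in batch 2.

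The responses to both treatments were compared directly, as a contrast over the 12 libraries. The experiments share no control library. The MAPKi effect was lower than the Gln depletion effect for 8 of the 10 genes and higher for 0, against 20.7% and 19.8% of 12627 genes tested. The difference in log2 fold change was -6.20 for CHAC1 (SE 0.42, adjusted p = 8.77e-07 with edgeR) and -4.26 for TRIB3 (SE 0.20, adjusted p = 5.66e-08 with edgeR), and it was -1.67 for CEBPB and -1.69 for DDIT4, the smallest that passed. For ATF3 it was -0.22 (95% interval -1.07 to 0.63, adjusted p = 0.684 with edgeR), and for EIF2AK4 it was -0.27 (95% interval -0.65 to 0.11, adjusted p = 0.247 with edgeR), so neither difference passed the test and both intervals leave room for a difference.

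Levels were compared between genes per length, as reads per kilobase of exon scaled to the same total in each library. ATF4 was the most abundant of the 10 mRNAs with DMSO (mean per-length level 264.6), in CTRL medium (352.6) and in Gln-depleted libraries (1112), and its libraries did not overlap with those of DDIT4, which came next. With MAPKi the order at the top was exchanged, with DDIT4 at a per-length level of 171.5 and ATF4 at 132.1, again without overlap. ATF3 had the lowest per-length level with DMSO (7.55) and in CTRL medium (10.76, overlapping with CHAC1), though by coding length CHAC1 was the lowest in both (11.65 and 19.43). The lowest were CHAC1 with MAPKi (1.164), and EIF2AK4 in Gln-depleted libraries (42.83, overlapping with ATF3). In CTRL medium, neighbours from CEBPB down to EIF2AK4 overlapped in their libraries, and in Gln-depleted libraries those from DDIT4 down to PPP1R15A did.

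Across the 12 libraries, after the mean of each experiment had been subtracted from log2 levels, ATF4 and TRIB3 had the closest pattern of the 45 pairs (Pearson's r = 0.99). ATF4 was most like GARS1 (0.989), TRIB3 (0.985), GPT2 (0.984), MORN4 (0.984) and TMEM39A (0.983) among 10729 genes. CHAC1 was most like MOCOS (0.993), KCNG1 (0.990), TBL1X (0.989), GRB10 (0.989) and PAPSS2 (0.988). EIF2AK4 had no coefficient above 0.19 with another of the 10 genes, but the experiments differed. Its coefficient with ATF4 was 0.98 over the MAPKi and DMSO libraries and -0.74 over the Gln-depleted and CTRL medium libraries. These coefficients describe 12 points that share treatment, batch and depth.

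The other genes of the pathway were taken as lists. Of 40 genes known downstream of ATF4, 38 were tested with Gln depletion, and 31 rose and none fell, with a median log2 fold change of 1.82. With replicate number as a term of the fit (replicate block), 37 rose and 1 fell. With MAPKi 37 were tested, of which 25 fell and 9 rose, with a median of -0.78 against 0.01 over all genes tested. Of all genes tested, 38.8% were lower and 39.3% higher with MAPKi. With Gln depletion 9.43% were higher and 8.29% lower, and these shares apply to each list below in the fit without the replicate block. With the block more of all genes were up- and downregulated too. Counts with the block therefore have no matching share of all genes here. Among the genes downstream of ATF4, 20 rose with Gln depletion and fell with MAPKi, as ATF4 itself did and as 2.74% of all genes tested in both did, and 9 rose in both (4.5% of all genes). The lists were chosen with earlier results of these data known, so their directions are not independent evidence.

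Of the amino acid synthesis genes, 10 of 12 were higher with Gln depletion (9.43% of all genes were). With MAPKi 11 of 12 were lower (38.8% of all genes). With the replicate block 11 were higher and 1 lower with Gln depletion, and 8 to 11 were higher with a library left out. MTHFD2, a mitochondrial folate enzyme, had a log2 fold change of 2.12 with Gln depletion and -2.66 with MAPKi, and PYCR1, which makes proline, had 2.11 and -2.06. ALDH1L2, another mitochondrial folate enzyme, was the exception, with 4.17 and 0.34, the latter not passing in 5 of the 6 fits with a library left out. ASNS, asparagine synthetase, went the same way as MTHFD2 (2.85 and -2.14) but had only 4 to 131 reads per library. All 8 amino acid transporters were higher with Gln depletion (9.43% of all genes), and 7 were without CTRL medium replicate 2 or 3. SLC6A9, at most 0.5948 CPM, was not tested in 3 other fits with a library left out. With MAPKi 4 of the 7 tested were higher and 3 lower, where 39.3% and 38.8% of all genes were. SLC7A11, the cystine carrier, had log2 fold changes of 3.50 and -2.14, whereas SLC7A5 and SLC3A2, which together form a carrier of large neutral amino acids, were raised by both (2.21 and 2.52 for SLC7A5, 1.91 and 1.86 for SLC3A2, Gln depletion first).

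Of 12 aminoacyl-tRNA synthetases, 7 were higher with Gln depletion (9.43% of all genes). With the replicate block 12 were, in a fit that also called more of all genes. The count was 3 without Gln-depleted replicate 2 and 4 without CTRL medium replicate 2 or 3. With MAPKi 7 were lower and 2 higher (38.8% and 39.3% of all genes). WARS1, for tryptophan, rose most with Gln depletion (2.38). IARS1 and CARS1 passed in neither experiment without the block, and their libraries differed within a group by up to 15.8-fold and 7.45-fold, as those of 0.54% to 1.42% of genes differed by over 5-fold, while no member differed by more than 2.29-fold. Without them 7 of 10 synthetases were higher with Gln depletion and 7 of 10 lower with MAPKi. Of the other stress genes downstream of ATF4, 6 of 8 were tested. All 6 were higher with Gln depletion (9.43% of all genes), or 5 without replicate 2 or 3 of either group. GDF15, a secreted stress factor, had 2.44 and -1.78, while NUPR1, a small stress-induced nuclear protein, rose in both (4.31 and 1.94). SESN2 and FGF21 had too few reads to be tested, and a further copy of SESN2 in the table held a mean of 265.2 reads.

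Upstream of ATF4, none of 6 further eIF2 kinases and their regulators passed with Gln depletion (2 were higher with the replicate block), and with MAPKi 3 were lower and 2 higher, shares near those of all genes (38.8% and 39.3%). GCN1, the activator of GCN2, had a log2 fold change of -0.62 with MAPKi, beside -0.52 for EIF2AK4. All 8 subunits of eIF2 and eIF2B were lower with MAPKi, against 38.8% of all genes, EIF2B3 by the most (-1.37). In 4 of the 6 fits with a library left out 7 were lower, without MAPKi replicate 1 or 2 and without DMSO replicate 2 or 3. Of the 8, 1, EIF2S3, was higher with Gln depletion (0.70), a call lost without replicate 2 or 3 of either group, while 2 were higher and 1 lower with the replicate block. Of 14 bZIP partners, 4 were higher and 2 lower with Gln depletion (9.43% and 8.29% of all genes), or 8 and 2 with the replicate block. With MAPKi 8 were higher and 2 lower (39.3% and 38.8% of all genes). The number lower with Gln depletion was 1 in 5 of the 6 fits with a library left out, all but the one without CTRL medium replicate 1. FOSL1, an AP-1 subunit, had 2.23 with Gln depletion and -2.45 with MAPKi, while JUN rose in both (1.62 and 2.06). CEBPD, unlike CEBPB and CEBPG, fell with Gln depletion (-2.63).

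The ATF6 and IRE1 branches of the unfolded protein response, which sense misfolded proteins in the endoplasmic reticulum, were followed with 14 targets. Of these, 2 were higher and 2 lower with Gln depletion (9.43% and 8.29% of all genes), or 5 and 5 with the replicate block. Their median log2 fold change with Gln depletion was -0.06. The count of lower targets was 0 without CTRL medium replicate 2 or 3 and without Gln-depleted replicate 2 or 3. With MAPKi 5 were higher and 6 lower, near the shares of all genes (39.3% and 38.8%). DNAJB9, a chaperone cofactor, rose with Gln depletion (2.21) and with MAPKi (1.15). HYOU1, whose libraries differed by up to 18.8-fold within a group by the measure used for IARS1, passed in neither experiment.

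**Figure D4:**
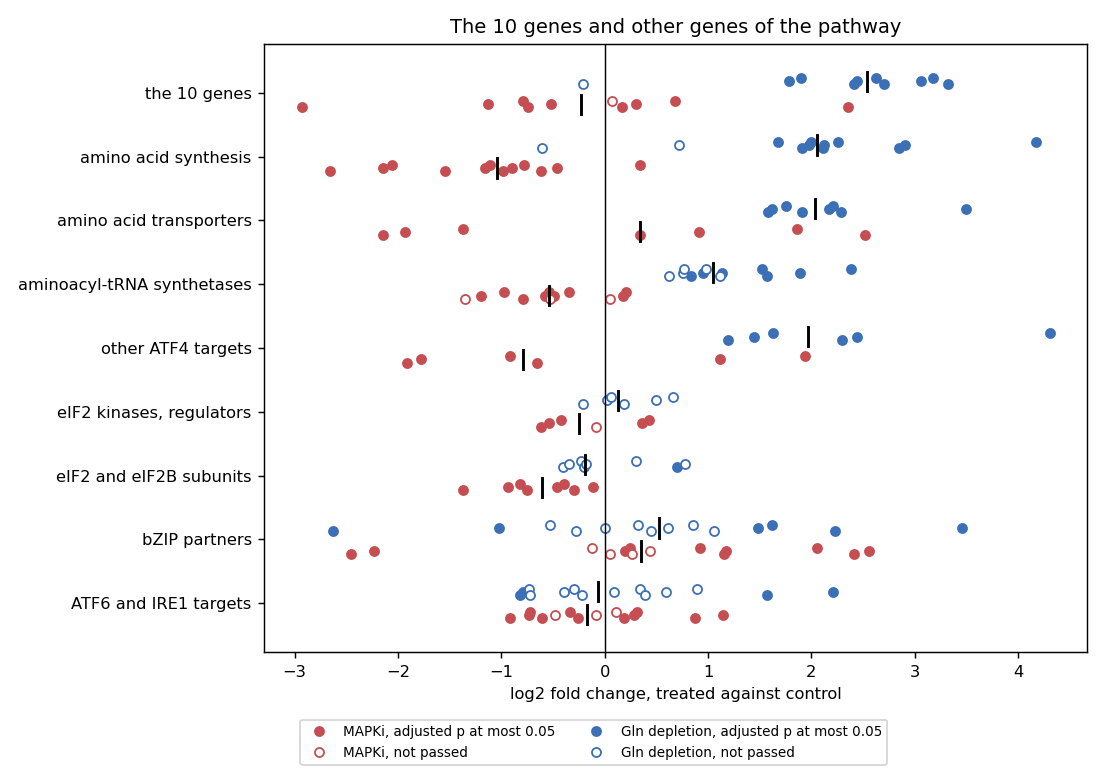
Log2 fold change of the 10 genes and of 8 other lists of the pathway with MAPKi (red) and with Gln depletion (blue); filled points have an adjusted p of at most 0.05 against no change with edgeR, open points do not, and black bars are medians of the tested genes. Genes downstream of ATF4 lie to the right with Gln depletion apart from ALDH18A1 (-0.61, not passed), and amino acid synthesis lies to the left with MAPKi apart from ALDH1L2.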

How the data were processed

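The authors trimmed reads of rRNA-depleted libraries with fastp 0.20.1, aligned them with HISAT2 2.2.1 to GRCh38.p13 and counted them on exons with HTSeq 0.13.5 (versions per the submitters' processing notes), and deposited raw counts per gene without normalization. The labels describe RNA of a cytoplasmic fraction, the RNA-seq methods total RNA. The strand setting of the counting is not given in the sources used here.

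The 10 genes and the lists were chosen with earlier results of these data known. Symbols were matched to RefSeq (36524 by symbol, 513 by older symbol, 7622 not matched). Tests covered protein-coding genes whose normalized counts averaged 10 or more in the experiment. They were fitted with edgeR 4.0.16 in R 4.3.3 (TMM, quasi-likelihood, treatment as the only term), against a 1.5-fold change (up- and downregulated) and against no change (higher and lower), with Benjamini-Hochberg adjustment over all genes tested. The difference between experiments was a contrast over 12 libraries. Levels in CPM use TMM over 12 libraries and the tested genes. Per-length levels use merged GENCODE exons. All 10 genes are named, and from each list at most the 3 highest and lowest changes per experiment that passed, plus genes singled out after their values were seen (CARS1, IARS1, HYOU1, SESN2, FGF21). Counts of lists without widely spread genes and the 500-base window were added after the data were seen.

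Same-numbered libraries deviated together in the Gln depletion experiment (r over genes of 0.660, 0.548 and 0.431, with batches shared in the labels), so its numbers pair the libraries. The main fit and the contrast over 12 libraries leave this pairing out. Their SEs, intervals and p-values for Gln depletion thus include the spread between pairs. In the MAPKi experiment r was 0.116, 0.029 and 0.044, and they share only a number. Alternatives were DESeq2 1.42.0, other normalization, filters, gene sets and thresholds, a replicate block, the batch, and each library left out. On simulated data with 200 genes changed by a log2 fold change of 2, edgeR called 188 with the spread of DMSO (12350 genes) and 160 with that of CTRL medium (12420 genes). It also called 1 and 2 unchanged genes, and DESeq2 called 179 and 151 of the changed genes. The simulated libraries had no pairs or batches, and changes near the 1.5-fold threshold were not simulated.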

Additional observations from a re-analysis of the deposited data

Results flagged for a closer look

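For 8 of the 10 genes the effect of MAPKi differed from that of Gln depletion by a test of the difference itself (edgeR contrast over 12 libraries). It was lower in these 8, as in 20.7% of the 12627 genes tested, of which another 19.8% were higher. The difference in log2 fold change, MAPKi minus Gln depletion, was -2.59 for ATF4, -2.35 for DDIT3, -4.26 for TRIB3, -6.20 for CHAC1, -1.69 for DDIT4, -2.85 for PPP1R15A, -1.67 for CEBPB and -3.19 for CEBPG. For ATF4, TRIB3, CHAC1 and CEBPG the effects had opposite signs, and for DDIT4 both were rises. For DDIT3, PPP1R15A and CEBPB the MAPKi effect did not pass in this fit (adjusted p = 0.361, 0.429 and 0.714 with edgeR). The experiments belong to different sequencing batches, and each effect was taken within its own batch.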

How the results depend on the processing

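Of 30 log2 fold changes of the 10 genes (2 experiments and their difference), 25 kept their direction and their side of an adjusted p of 0.05 against no change under every alternative run. The 2-fold threshold, 1 of these alternatives, cannot change either of them, so its agreement was fixed in advance. Calls against 1.5-fold were less stable, with that of ATF4 with MAPKi kept in 8 of 14 alternatives, DDIT4 in 6, CEBPG in 12 and TRIB3 in 13, and that of CEBPG with Gln depletion in 15 of 16. Members upregulated with MAPKi numbered 1 rather than 2 with DESeq2, without a filter on the mean count, in the fit of 12 libraries and with a 2-fold threshold, and 1 to 2 with a library left out. Those downregulated numbered 2 in the fit of 12 libraries and 1 with a 2-fold threshold, against 4, and 3 to 4 with a library left out. Those higher with MAPKi numbered 2 in the fit of 12 libraries. Without MAPKi replicate 1, CEBPB passed with 0.13 (adjusted p = 0.0223 with edgeR), and without Gln-depleted replicate 1 the difference for EIF2AK4 passed with -0.39 (adjusted p = 0.0344 with edgeR). With a library left out the difference for ATF3 ran from -0.50 without CTRL medium replicate 1 to 0.06 without CTRL medium replicate 3 (adjusted p = 0.881 with edgeR), the only reversal, and the cause was not tested.

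The replicate block changed no call of the 10 genes (9 higher with Gln depletion, 4 higher and 5 lower with MAPKi), and EIF2AK4 with Gln depletion was -0.22 (adjusted p = 0.145 with edgeR). Over all genes it moved the upregulated with Gln depletion from 434 to 1106 and the downregulated from 262 to 978. These were 807 and 897 in the fit of 12 libraries, 1019 and 871 with the batch as a term, 726 and 643 within batch 2, and 193 and 63 with a 2-fold threshold. Leaving out single libraries took the upregulated as low as 195, without CTRL medium replicate 3, and the downregulated from 64, without Gln-depleted replicate 2, to 420, without Gln-depleted replicate 1. With MAPKi, 1416 genes were upregulated in the fit of 12 libraries, and 1040 were up- and 1256 downregulated with a 2-fold threshold, against 2162 and 2314. Per-length levels moved with the length used, CEBPG to 77.98 over the control libraries with the coding sequence alone.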
